A study of Mus musculus with 18 samples.

Results

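The open chromatin of lung endothelial cells (ECs) from mice aged 18 months was compared with that of mice aged 2 months, over both treatments of the study. All 18 ATAC-seq peak lists of the series entered the comparison, 9 from aged and 9 from young mice, each list from the ECs of a separate mouse. Treatment was kept as a stratum, so that aged lists were set only against young lists of the same treatment. The Young Sham group holds 5 lists from mice aged 2 months that received PBS, and the Young Bleo group holds 4 lists from mice aged 2 months that received bleomycin, a drug that causes lung injury and fibrosis when given into the airway. The Aged Sham group holds 4 lists from mice aged 18 months that received PBS, and the Aged Bleo group holds 5 lists from mice aged 18 months that received bleomycin. Lungs were taken on day 30 after treatment. All mice were FVB and, per the study's methods, carried a Col1α1-GFP transgene, a reporter of collagen-producing cells that served to discard GFP+ fibroblasts during sorting. The sorted cells were CD31+ and lacked CD45, EpCAM and GFP, so each list mixes the capillary, arterial, venous and lymphatic ECs of a lung, and fewer cells of a type cannot be told apart from less open chromatin per cell. Peaks of all 18 lists on chromosomes 1 to 19, X and Y were merged where they overlapped by 1 bp or more, and every merged region found in 2 or more lists was tested, 47338 in all.

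In ATAC-seq the transposase Tn5 inserts sequencing adapters where DNA is not wrapped tightly in nucleosomes, so that fragments pile up over promoters and enhancers, and a peak marks a stretch with more fragments than the library's local background. Promoters of active genes are open in most cells, while enhancers, which lie away from promoters, are open in a cell-type-specific manner and are bound by factors such as the ETS family member ERG, SOX factors and AP-1. In the lung, general capillary cells repair the vessel bed after injury and aerocytes form the thin wall for gas exchange.

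The sequences below show regions on which the comparison turns, read from the RefSeq genome assembly GRCm38.p6 (mm10) on the plus strand and written 5′ to 3′. Capitals mark matches, on either strand, to 6 of the 8 short motifs searched: CAGGAAG for ERG and other ETS factors, TGANTCA for AP-1, CCATTGT for SOX, GGGNGTGG for KLF, AGGGGGC for CTCF and GGAATG for TEAD. The other two, TGTTTAC for forkhead and GAAANNGAA for IRF factors, were searched in the same way. Of the 200 bases around the strongest summit of all 47338 regions, 19.9% held the ERG letters, 8.63% the AP-1 letters, 5.58% the SOX letters, 12.6% the KLF letters, 9.71% the CTCF letters, 10.5% the TEAD letters, 4.45% the forkhead letters and 6.19% the IRF letters. A match describes letters and not a bound site. The region near Prr9 is shown because it had a peak in every aged list and in no young list. The bases upstream of Ildr2 are shown because this promoter leaned the opposite way, with a peak in every young list and in 1 aged list. Neither holds any of the motifs searched.
Prr9, chr3:92120456-92120655: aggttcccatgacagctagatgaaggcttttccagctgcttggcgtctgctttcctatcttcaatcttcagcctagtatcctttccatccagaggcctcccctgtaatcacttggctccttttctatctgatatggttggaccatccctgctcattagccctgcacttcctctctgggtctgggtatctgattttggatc
Ildr2, chr1:166254039-166254138: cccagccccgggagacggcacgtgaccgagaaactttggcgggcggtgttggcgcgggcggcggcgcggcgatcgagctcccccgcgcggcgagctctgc
The region 27.3 kb downstream of the Aplnr start is shown as a distal region that left the strongest peaks of aged lists, and the region 27.9 kb upstream of Thrb as a distal region that entered them. Both hold the ERG letters.
Aplnr, chr2:85163502-85163701: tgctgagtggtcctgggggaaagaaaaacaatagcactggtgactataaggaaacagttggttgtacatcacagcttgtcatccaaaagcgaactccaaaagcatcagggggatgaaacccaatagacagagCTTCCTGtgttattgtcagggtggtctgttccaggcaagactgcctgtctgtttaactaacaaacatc
Thrb, chr14:17632969-17633168: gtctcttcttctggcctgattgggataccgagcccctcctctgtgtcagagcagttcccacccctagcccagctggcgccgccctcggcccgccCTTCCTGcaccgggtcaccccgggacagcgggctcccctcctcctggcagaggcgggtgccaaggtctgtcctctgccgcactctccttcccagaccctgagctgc
The last set shows a promoter with weaker peaks in aged lists, Slit2, with the CTCF letters, and distal regions near Gm15501 and Chst1 with stronger peaks in aged lists. Both distal regions hold the AP-1 letters (TGAATCA and TGACTCA), the first also the SOX and KLF letters and the second also the TEAD letters. Of the 116 distal regions called stronger in aged lists, 24.1% held the AP-1 letters, so most did not.
Slit2, chr5:47983055-47983154: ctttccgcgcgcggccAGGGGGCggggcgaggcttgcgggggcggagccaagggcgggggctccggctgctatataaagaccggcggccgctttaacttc
Gm15501, chr7:93424910-93425109: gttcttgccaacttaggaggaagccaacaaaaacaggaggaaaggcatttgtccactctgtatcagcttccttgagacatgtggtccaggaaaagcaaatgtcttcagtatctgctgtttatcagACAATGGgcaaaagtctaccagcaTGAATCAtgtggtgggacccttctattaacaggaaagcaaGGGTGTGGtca
Chst1, chr2:92678316-92678515: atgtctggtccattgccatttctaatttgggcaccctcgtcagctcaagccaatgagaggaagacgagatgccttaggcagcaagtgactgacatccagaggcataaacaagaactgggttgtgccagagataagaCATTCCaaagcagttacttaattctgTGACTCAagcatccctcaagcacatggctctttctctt

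The lists carry the label of endothelial cells, and their promoters were checked against marker genes. Of 22 endothelial identity genes (such as Cdh5, Tie1 and Erg), 19 had a promoter region, and between 17 and 19 of these had a peak in each aged list and 18 or 19 in each young list. None of the 20 leukocyte markers had a promoter region, while 2 of 15 epithelial and 2 of 16 mesenchymal markers had one with a peak in every list. Outside promoters, 5 of the 20 leukocyte markers were the nearest gene to 8 regions, 4 of them with a peak in every list. Of 8 lymphatic endothelial markers 3 had a promoter region, with a peak at 0 to 3 of them in a list of either age, and 1 of 12 megakaryocyte and erythroid markers had one, with a peak at 0 or 1. Sequencing lanes, which the list names carry as a code, follow age closely. Lane 6 held 6 aged lists, lane 8 held 6 young lists, and lane 7 held 3 Aged Sham and 3 Young Bleo lists, which leaves age and lane inseparable outside lane 7, while within it age and treatment cannot be told apart. No read totals are given in the lists, and the background coverage stood in for depth: the lowest number of fragments that the peak caller expected at a position, recovered from the deposited values.

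Aged lists were shorter. Young lists held 30073 to 39420 peaks with a median of 36956, and aged lists held 21050 to 40883 with a median of 29049. The difference within treatments averaged -5982 peaks (exact stratified permutation test, two-sided, p = 0.0243, adjusted over 11 list measures 0.0334). The ranges overlapped, since Aged Bleo 1 (37595), Aged Bleo 2 (40883), Aged Sham 2 (32220) and Aged Sham 4 (31366) had more peaks than the shortest young list. Without Young Bleo 2 the difference was -5547 (exact p = 0.0550) and without Young Bleo 3 it was -5528 (exact p = 0.0553). Peaks covered 12.6 to 16.9 Mb in young and 8.05 to 14.9 Mb in aged lists, a difference of -3.33 Mb (exact p = 0.00409, adjusted 0.0225).

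Both distal regions, in introns or between genes, and promoters had a peak less often in aged lists. Young lists had a peak in 66.8% ± 7.69 (SD, n = 9) of distal regions and aged lists in 52.0% ± 14.9 (SD, n = 9), a stratified difference of -15.3 points (exact permutation p = 0.0167). Of promoter regions, which reach from 1000 bp before a start site to 100 bp after it, young lists had a peak in 92.8% ± 1.70 and aged lists in 89.0% ± 3.63, a difference of -3.73 points (exact permutation p = 0.0134). The share of a list's peaks that lay in promoters was higher in aged lists, by 5.78 points (exact p = 0.0161). Background coverage moved with age as well. It was 1.26 to 1.78 fragments in young and 1.02 to 1.60 in aged lists, a difference of -0.42 fragments (exact p = 0.00126, adjusted 0.0139), and a typical summit rested on a median of 30 to 35 fragments in young and 26 to 32 in aged lists (difference -2.83, exact p = 0.0133). The share of peaks on the X chromosome (difference -0.033 points, exact p = 0.414) and the median peak width (-18.8 bp, exact p = 0.150) did not pass the threshold. None of these measures differed in its age effect between Sham and Bleo lists at an exact p of 0.05 or less. For the number of peaks, the aged minus young difference was -6357 in Sham and -5606 in Bleo lists (exact p of the difference 0.875).

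**Figure D1:**
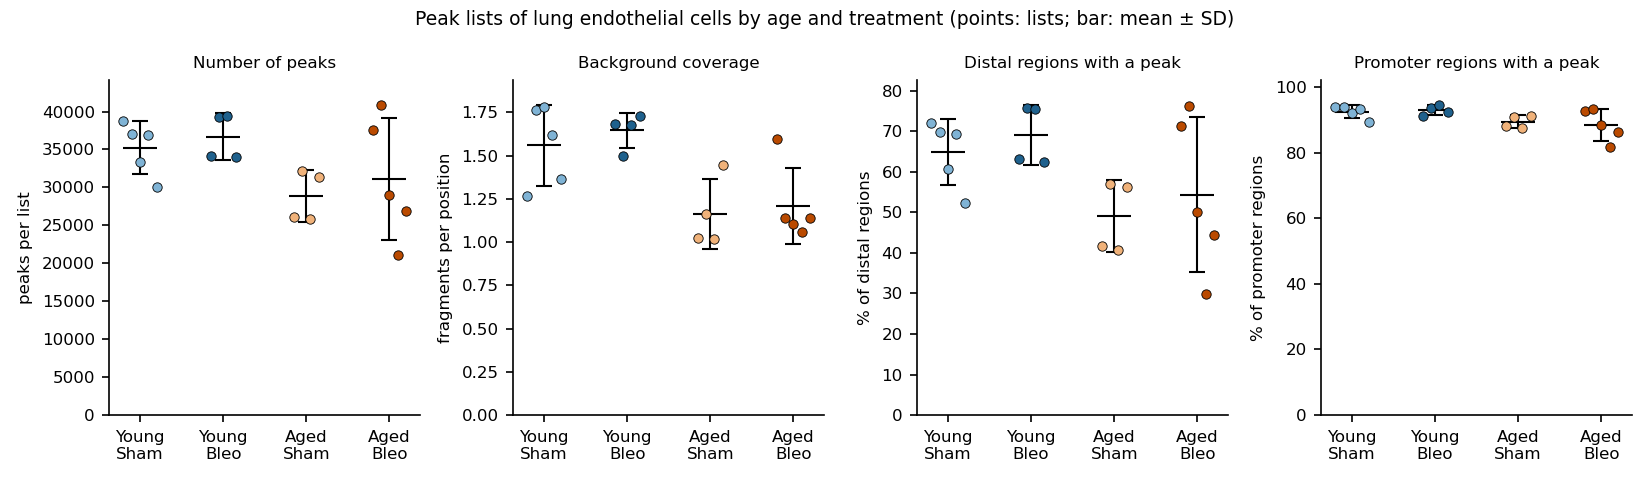
Number of peaks, background coverage (fragments per position), and shares of distal and of promoter regions with a peak (%), by group, with points for lists and bars for mean ± SD. Aged Sham lists sit at 40.8% to 57.1% of distal regions and Young Sham lists at 52.4% to 72.1%, while promoter shares lie between 81.7% and 94.7% in all lists, and the Aged Bleo group has the widest spread in each panel but that of background coverage.

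With all peaks, 3007 regions (6.35% of those tested) had a peak in fewer aged than young lists at an unadjusted p of 0.05 or less, and 78 (0.165%) had one in more aged lists. The test was a two-sided exact stratified test on the numbers of lists with a peak. No region passed after Benjamini-Hochberg adjustment (0%, smallest adjusted p 0.248), where the smallest p that 9 against 9 lists can give is 6.3e-05. Only 17389 regions had peaks in numbers of lists that could reach an unadjusted p of 0.05. All 9 young lists and no aged list marked 10 regions, and 2 regions went the other way.

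The regions with fewer aged lists resembled, in position, the regions whose number of lists allowed a call. Their midpoints were in promoters for 5.95% and a median of 22.2 kb from a start site, against 6.21% and 21.5 kb for the 17389 regions that could reach an unadjusted p of 0.05. Promoters made up 21.3% of all regions and 45.8% of those with a peak in all lists, where presence cannot differ. Within each list, peaks were ranked by fold enrichment, which sets the fragments at a summit against those expected from the local background. Over the lists with a peak, the regions with fewer aged lists had a median within-list percentile of 23.6, against 22.5 for those that could pass. Among regions with a peak in 2 to 5 lists, a mean of 1.13 aged and 2.11 young lists had one. The means were 2.54 and 4.83 for 6 to 9 lists, 4.35 and 7.18 for 10 to 13 lists, and 7.11 and 8.68 for 14 to 17 lists. The young mean was thus the higher in every class, from regions at a median percentile of 16.5 to those at 36.8. The other 17432 regions, at a median percentile of 71.4, had a peak in all 18 lists.

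Since the lists differ in length, presence was also scored from the 21050 peaks with the highest -log10 p of each list, the length of the shortest list. Then 482 regions (1.02%) had such a peak in fewer aged lists and 354 (0.748%) in more aged lists at an unadjusted exact p of 0.05 or less. None passed adjustment (0%, smallest adjusted p 0.745). Of the 3007 regions above, 976 leaned the same way among the equal top peaks, 233 leaned the other way and 1798 showed no difference, 1757 of these because no list had the region among its top peaks. Of the 78 regions with more aged lists, 60 leaned the same way. Of the 354 regions that gained top peaks, 139 also had more aged lists with all peaks, 67 had fewer and 148 had equal numbers. The direction of a region's difference therefore depended on the scoring for part of the regions, and 82 regions with fewer and 24 with more aged lists passed the unadjusted threshold in both scorings.

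**Figure D2:**
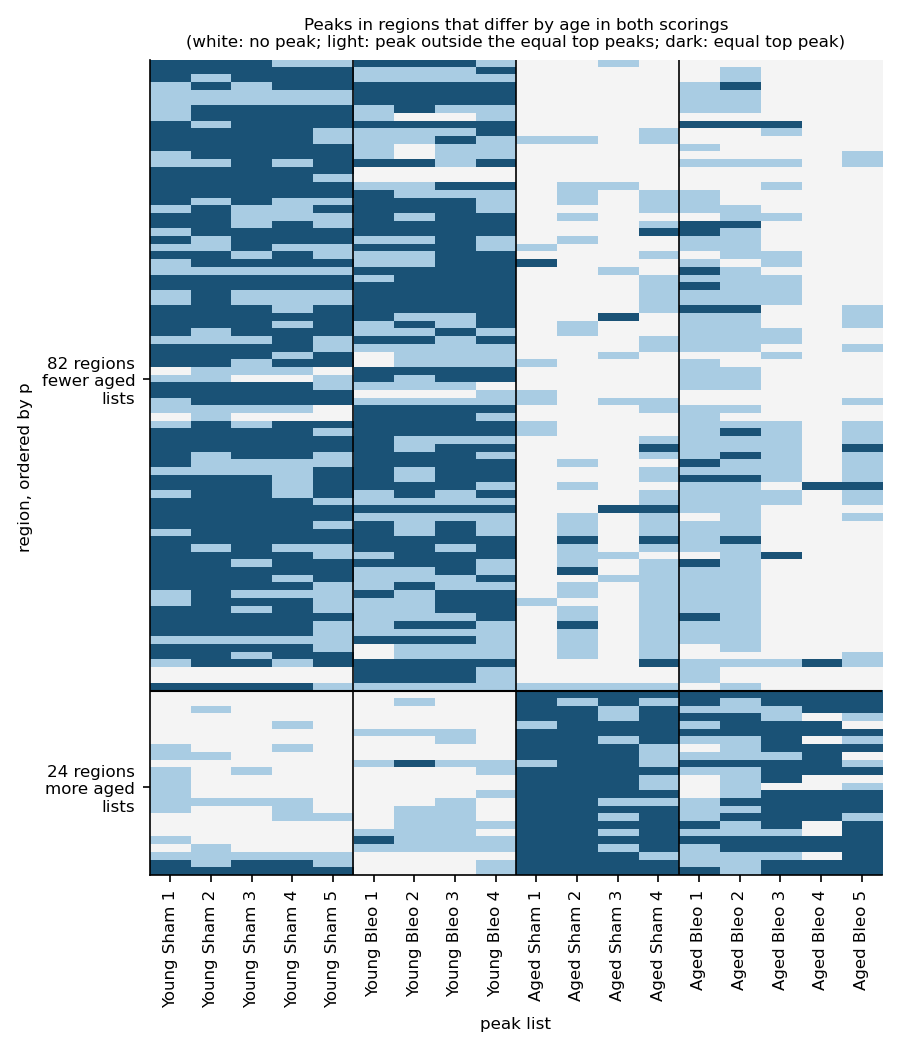
Each row is a region that passed an unadjusted p of 0.05 in both scorings, ordered by p, and each column a list; white marks no peak, light blue a peak outside the equal top peaks, and dark blue a peak among them. The 82 upper rows are mostly dark in the 9 young lists, the 24 lower rows are mostly dark in the 9 aged lists, and Aged Bleo 1 and 2 hold many light cells in the upper rows.

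Named regions with fewer aged lists in both scorings included 2 promoters. Among the equal top peaks, the calls near Gsk3a, Mir148a and Syt3 were each lost in 8 of the 18 tests that left out 1 list (exact p up to 0.143, 0.143 and 0.0714). The promoter of Ildr2 (chr1:166253911-166254445) had a peak in 5 of 5 Young Sham and 4 of 4 Young Bleo lists, with fold enrichments of 5.59 to 10.7 and a median of 9.21. Among aged lists, Aged Bleo 2 alone had a peak, at 6.08 (exact p = 0.00063). Among the equal top peaks the counts were 0 aged and 6 young lists (exact p = 0.00353). In lane 7 the counts with all peaks were 0 of 3 aged and 3 of 3 young lists. Among the equal top peaks no lane 7 list of either age had the promoter. The promoter of Gabre, a subunit of the GABA-A receptor (chrX:72274449-72275129), had a peak in all 9 young lists and in Aged Bleo 1 and Aged Bleo 2 (exact p = 0.00094). Its fold enrichments were 5.40 to 9.27 in Young Sham and 11.3 to 17.004 in Young Bleo lists, and its 50 central bases occur at 2 places in the genome.

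The other named regions of this direction were distal. A region in an intron of Rasgef1b (chr5:99248526-99248819), one 1.5 kb from Gsk3a, which encodes a kinase of insulin and Wnt signalling (chr7:25239244-25239507), and one 236.6 kb from the cadherin gene Cdh6 (chr15:13410039-13410490) each had a peak in 9 of 9 young lists and in 1 or 2 aged lists. So did a region nearest to Gm9949 on chromosome 18. Peaks near Gsk3a and in Rasgef1b were weak, at a mean within-list percentile of 2.38 and 5.94. Near Gsk3a, fold enrichments were 2.91 to 4.56 in young lists and 4.21 in the 1 aged list with a peak. In Rasgef1b they were 3.25 to 5.59 in young and 4.01 to 5.96 in aged lists with a peak. One region nearest to Gm29681 (chr5:131538466-131538953) had a peak in all 9 young lists and in 1 aged list (exact p = 0.00038), but its central bases occur at 2 places. The region 1.0 kb from the microRNA gene Mir148a (chr6:51270584-51271270) had a peak in 5 Young Sham, 2 Young Bleo and no aged lists (exact p = 0.00132), with fold enrichments of 5.97 to 11.5.

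In the opposite direction, the clearest region lay between genes 3.4 kb from Prr9 (chr3:92120273-92120795). It had a peak in all 9 aged lists and in no young list, with all peaks and among the equal top peaks, at the smallest p that the test can give (exact p = 6.3e-05, adjusted 0.248 and 0.745). Its fold enrichments were 13.5 to 17.02 in Aged Sham and 10.2 to 11.4 in Aged Bleo lists, so the Sham values all lay above the Bleo values. In lane 7 the counts were 3 of 3 aged and 0 of 3 young lists. A pair of regions about 70 kb from Gm5885 on chromosome 6 also had more aged lists. The one at chr6:133596910-133597386 was among the equal top peaks of 9 aged and no young lists, and with all peaks it had a peak in 9 aged lists and in Young Bleo 1, 2 and 3, at 5.60 to 8.11 in young and 6.27 to 16.6 in aged lists. In lane 7 this region had a peak in 3 of 3 lists of either age with all peaks, and in 3 aged and 0 young lists among the equal top peaks. The one at chr6:133598964-133599279 had a peak in 9 aged lists and 1 young list (exact p = 0.00038), and in 3 aged and 1 young lists of lane 7.

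The other named regions with more aged lists were called in 8 or 9 aged lists. An intronic region of Bdnf, a neurotrophin (chr2:109694821-109695152), had a peak in 9 aged lists, at 5.47 to 9.82, and in 1 young list, at 5.06 (exact p = 0.00063). An intronic region of the synaptotagmin gene Syt3 (chr7:44383971-44384808) had a peak in 8 aged lists and 1 young list (exact p = 0.00416). A region 506 kb from Brinp1 (chr4:69459990-69460545) had one in 8 aged and 2 young lists (exact p = 0.0051). The promoters of Gm4759 (8 against 1) and of Gm21149 (8 against 0) were also among them, the latter with central bases at 2 places in the genome.

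Regions were assigned to the gene with the nearest start site, and the number of a gene's regions with a peak was compared for the 5879 genes with 3 or more regions. With all peaks, 1609 genes (27.4%) had fewer marked regions in aged lists and 8 (0.136%) had more at an unadjusted exact permutation p of 0.05 or less. None passed adjustment (0%), with a smallest adjusted p of 0.0522. This count rested on few lists: 563 genes passed without Aged Bleo 2, 283 without Aged Bleo 1 and 83 without Young Sham 5. With the equal top peaks the counts were 238 genes with fewer (4.05%) and 190 with more (3.23%), and none passed adjustment (0%, smallest adjusted p 0.247).

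Aplnr, the receptor for apelin and a marker of general capillary cells, headed the genes with fewer regions. Among its 7 regions, young lists had 5 to 7 with an equal top peak and aged lists 1 to 5 with a median of 3. The stratified difference was -2.35 regions (exact permutation p = 0.00025, adjusted 0.247), and the groups met only at 5. Aged Bleo lists, at 1 to 3, lay below Aged Sham lists, at 3 to 5, apart from the shared value 3. With all peaks the difference was -1.70 (exact p = 0.00328). The lists differed most at the region 27.3 kb away whose sequence is given above (3 aged and 9 young lists) and at one in its UTR (4 and 9), while the region 6.7 kb upstream had an equal top peak in all lists.

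Cd34, which encodes a sialomucin of the vessel surface, had an equal top peak in 3 or 4 of its 8 regions in young lists and 2 or 3 in aged lists (-1.25, exact p = 0.00038). Its promoter and a region 10.8 kb upstream had such a peak in all 18 lists, and the difference came from an exon 17.2 kb downstream (0 aged and 6 young lists) and a region 52.9 kb upstream (2 and 7). Syt6 (-1.48), Slc25a13, a mitochondrial carrier of aspartate and glutamate (-1.10), 2210409D07Rik (-1.70) and 4930524C18Rik (-1.30) completed the named genes of this direction. For 4930524C18Rik the difference with all peaks was -1.75 (exact p = 0.00057, adjusted 0.0522).

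Asb8, a SOCS-box protein gene, led the genes with more regions. Every young list had an equal top peak in 1 of its 4 regions and aged lists had 2 or 3 (difference 1.68, exact permutation p = 6.3e-05, adjusted 0.247), and the gain lay in 2 intronic regions at 8 against 0 and 7 against 0 lists. Thrb, which encodes a thyroid hormone receptor, had an equal top peak in 0 to 2 of 6 regions in young and 2 or 3 in aged lists (1.90, exact p = 0.00019). With all peaks Thrb went the other way (-0.98, exact p = 0.0382, above 0.05 in 9 of the 18 tests that left out 1 list), and regions 258 kb and 254.8 kb upstream had a peak in 2 aged lists each, against 8 and 4 young lists. The region shown above and the Thrb promoter had peaks in all lists, and both were stronger in aged lists (0.60, limma adjusted p = 0.0099, and 0.49, limma adjusted p = 0.0178, on the log2 scale). Spon1 (1.25), Gm21149 (1.38), Gm16336 (1.10) and Gm21190 (0.88) were the others, and Spon1 and Gm21190 also had the opposite sign with all peaks (-0.93 and -0.13, exact p = 0.0911 and 0.630). The regions of Gm21149 (chr5:15463112-15499508) and Gm21190 (chr5:15506987-15527907) are neighbours and may not be independent.

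Tek, which encodes the angiopoietin receptor TIE2, was chosen after its values were seen. With all peaks, young lists had a peak in 8 to 12 of its 12 regions with a median of 11, and aged lists in 2 to 11 with a median of 6. The difference was -4.20 regions (exact permutation p = 0.0012, adjusted 0.0522). Among the equal top peaks it was -0.95 (exact p = 0.117), and it passed the unadjusted threshold only without Aged Sham 1 or without Aged Sham 4. Regions that were hardly among the top peaks showed the difference, 18.7 kb upstream at 0 aged against 7 young lists, 6.5 kb upstream at 1 against 8, 30.4 kb downstream at 2 against 9 and 87.8 kb downstream at 2 against 7, whereas the regions 7.3 kb and 90.9 kb downstream had equal top peaks in all 18 lists. Notch1, Lrp5 and Chst1, also chosen after their values were seen, had more equal top peaks in aged lists (1.02, 1.70 and 1.58 regions) and fewer regions with all peaks (-0.18, -0.78 and -0.90, exact p = 0.760, 0.273 and 0.107). The Notch1 difference with all peaks was 0.075 without Aged Sham 1, and that of Chst1 passed the unadjusted threshold without Young Sham 5. Kit, chosen in the same way, passed in neither scoring. Over its 20 regions the difference was -2.675 with all peaks (exact p = 0.117) and -0.80 among the equal top peaks (exact p = 0.265). The former passed the unadjusted threshold in 1 of the 18 tests that left out 1 list.

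The strength of a peak was compared in the 17432 regions with a peak in all 18 lists, as the log2 fold enrichment after quantile normalization, with limma and treatment as a term. Peaks were weaker in aged lists in 371 regions (2.13%) and stronger in 238 (1.37%) at an adjusted p of 0.05 or less. At an unadjusted p of 0.05 or less, 1857 regions (10.7%) were lower and 2035 (11.7%) higher. The median change of the 371 regions was -0.36 (from -1.02 to -0.09) and that of the 238 was 0.34 (from 0.09 to 1.03), both in log2 fold enrichment. Which direction had more calls depended on the scaling, with 369 lower and 396 higher regions after median centring and 874 and 954 with summit fragments in place of fold enrichment. Few regions separated the ages completely. After normalization all 9 aged values lay below all 9 young values in 10 regions, and above them in 26.

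Background coverage and lane moved with age, and the strength calls changed with both. With the background coverage of each list as a term, 14 lower and 10 higher regions passed. Of the regions called, 370 of 371 and 238 of 238 kept their sign, with medians of -0.27 and 0.23. With lane as a term 1 and 0 regions passed, and 367 and 236 kept their sign, with medians of -0.42 and 0.38. The 16 regions of list genes that are named below for strength kept their sign in these fits, but none of the 16 passed with the background coverage term, with the lane term or in Bleo lists alone, and 8 passed after adjustment for GC content (limma adjusted p up to 0.128). Some of their changes moved by over 1.5 times. With the background coverage and lane terms in turn, they were 0.13 and 0.30 at Cdkn1a, 0.084 and 0.31 at Nr2f2, and 0.26 and 0.86 at Chst1. At Rora they were 0.10 and 0.19, at Tbx2 0.23 and 0.41, and at Mef2c 0.22 and 0.41. At Nfkb2 they were 0.19 and 0.52, at Klf6 0.33 and 0.092, and at Dll4 0.19 and 0.49. Within lane 7 alone, which sets Aged Sham against Young Bleo, 568 lower and 460 higher regions passed, and 362 and 234 of the regions called kept their sign.

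**Figure D3:**
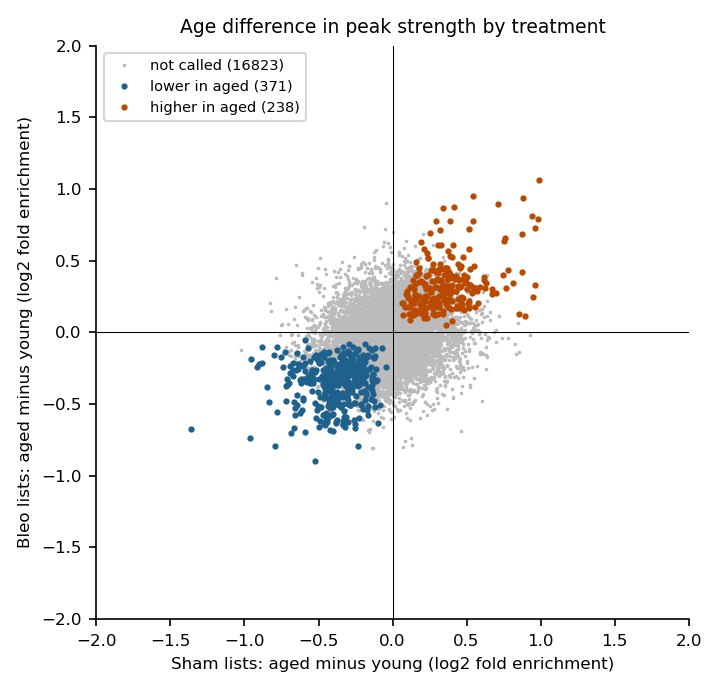
Aged minus young difference in log2 fold enrichment in Sham lists (horizontal) and Bleo lists (vertical) for the 17432 regions with a peak in all 18 lists, with the 371 lower and 238 higher regions coloured. All coloured points lie in the lower left or upper right quadrant, as their selection over both treatments favours, and grey points scatter on all sides of 0.

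Sham and Bleo lists share no mice, so each treatment gives its own estimate. All 371 lower and 238 higher regions had the same sign in both, which their selection over both treatments favours. In a fit of Sham lists alone 255 regions were lower and 134 higher, and 204 and 89 of these had the same sign in Bleo lists, 63 and 30 of them at an unadjusted p of 0.05 or less. In a fit of Bleo lists alone 9 regions were lower and 9 higher, and 7 and 8 had the same sign in Sham lists. Across the 17432 regions, which share libraries and are not independent, the Sham and Bleo differences had a correlation of 0.32. Testing the difference itself, the interaction of age and treatment called no region after adjustment (limma, smallest adjusted p 0.0855), and 1628 regions (9.34%) had an unadjusted p of 0.05 or less.

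Mlf1, a gene first known from a leukemia translocation, had the lower promoter with the smallest p (chr3:67373850-67374380). Its fold enrichments were 23.1 to 28.6 in the 9 young lists (median 24.3) and 10.98 to 21.96 in the 9 aged lists (median 14.6), without overlap. The change was -0.67 ± 0.076 (SE) on the log2 scale (limma adjusted p = 8e-06), and it was -0.67 in both treatments. The promoter of Slit2, a guidance ligand of the ROBO receptors (chr5:47982841-47983512), also showed no overlap, at 13.9 to 19.1 in young and 5.41 to 12.2 in aged lists (-0.69 ± 0.095 SE, limma adjusted p = 0.00012). An intronic region of Fam107b, 0.2 kb from a start site (chr2:3713194-3714114), fell by 0.34, again without overlap (20.6 to 25.2 against 15.6 to 19.3). Regions near Gm3411 (-1.02), in an exon of Tmc4 (-0.67) and near Gm31510 (-0.64) fell with overlapping ranges. Gm3411 fell by 1.36 in Sham and 0.68 in Bleo lists (limma interaction, adjusted p = 0.346).

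After normalization each of the 6 named regions with stronger peaks in aged lists separated the ages. The distal region 241 kb from Gm15501 (chr7:93424695-93425281), whose AP-1 letters are shown above, had fold enrichments of 9.94 to 12.9 in young and 12.6 to 25.1 in aged lists as deposited, and Aged Bleo 4, the lowest aged list, lay below 2 young lists on that scale. The change was 0.78 ± 0.083 SE (limma adjusted p = 4.9e-06). A region 22.5 kb from Fpr2, a formyl peptide receptor gene (chr17:17909951-17910596), rose by 0.55, and the promoter of Fbxl16, an F-box protein gene (chr17:25808740-25809242), rose by 0.91, from 5.59 to 10.5 in young to 9.33 to 17.4 in aged lists. A region 304 kb from Mir509 on chromosome X rose by 0.88. Regions near A530032D15Rik (1.03) and 4933402J10Rik (0.89) rose as well, but their central bases occur at 2 places in the genome.

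Genes of the endothelial lists were then taken as groups. From here on, regions counted as having fewer or more aged lists passed an unadjusted exact p of 0.05 or less in that direction. Regions with a peak in nearly all or very few lists cannot pass the presence test. Shares were therefore also taken over the regions that could, and 17.3% of all such regions had fewer aged lists. That share was 16.5% of 85 endothelial identity, 23.4% of 64 general capillary, 27.8% of 36 aerocyte, 26.0% of 50 large vessel and 16.2% of 68 angiogenesis and Notch regions, and 27.1% of 70 regions of the genes that the study names. Among the equal top peaks, at an unadjusted exact p of 0.05 or less, 2 endothelial identity regions had fewer and 2 more aged lists. The counts were 3 and 2 for general capillary, 2 and 5 for aerocyte and 1 and 1 for large vessel regions. They were 0 and 2 for angiogenesis and Notch regions and 4 and 1 for the genes that the study names. Of all regions, 1.02% had fewer and 0.748% more. Among the 225 regions of the 22 endothelial identity genes, 14 (6.22%, against 6.35% of all regions tested) had fewer aged lists with all peaks and none had more (against 0.165%). Of the 76 regions of this list with a peak in all lists, 15 (19.7%) had a higher and 1 (1.32%) a lower strength at an unadjusted p of 0.05 or less, against 11.7% and 10.7% of all regions tested, and the median change was 0.057, against 0.0093. The promoter of Mef2c, a factor of vessel development, passed adjustment (0.36 ± 0.087 SE, limma adjusted p = 0.0239), at 8.24 to 11.7 in young and 11.5 to 13.03 in aged lists. Among the regions with fewer aged lists was one 19.5 kb upstream of Sox17, an arterial factor, with a peak in 5 Young Sham, 2 Young Bleo and no aged lists (exact p = 0.0013).

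The 14 general capillary markers had 143 regions. At an unadjusted exact p of 0.05 or less, 15 (10.5%, against 6.35% of all regions) had fewer aged lists and none more. In the 33 regions with a peak in all lists, strength was higher in 5 (15.2%, against 11.7% overall) and lower in 4 (12.1%, against 10.7%) at an unadjusted p of 0.05 or less, with a median of -0.015. A region 3.5 kb upstream of Gpihbp1, the capillary anchor of lipoprotein lipase, rose by 0.37 ± 0.089 SE (limma adjusted p = 0.0239), with 9.09 to 14.5 in young and 10.1 to 16.7 in aged lists, and did not pass without Aged Sham 2 or without Aged Sham 3 (limma adjusted p up to 0.0581). The 14 aerocyte markers had 98 regions, of which 10 (10.2%, against 6.35%) had fewer aged lists with all peaks. Among the equal top peaks, 2 had fewer and 5 more. Strength was higher in 4 (14.8%, against 11.7%) and lower in none (against 10.7%) of 27 at the unadjusted threshold, and 2 passed adjustment. They were the promoter of Tbx2, a T-box factor (0.40, limma adjusted p = 0.0244, and 0.0516 without Young Bleo 3), and the region 77.4 kb from Chst1, a sulfotransferase gene (0.54 ± 0.12 SE, limma adjusted p = 0.0169). The Chst1 region rose by 0.29 in Sham and 0.78 in Bleo lists (limma interaction, adjusted p = 0.528).

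Of the 113 regions of 18 large vessel markers, 13 (11.5%, against 6.35% of all regions) had fewer aged lists. An intronic region of Vwf, the gene of von Willebrand factor, 51.7 kb from its start site had a peak in 9 young and 2 aged lists (exact p = 0.00094), and an intronic region of Bmx, an arterial kinase gene, had one in 9 young and 2 aged lists (exact p = 0.0028). Strength was higher in 7 (25.9%, against 11.7%) and lower in 3 (11.1%, against 10.7%) of 27 regions of this list at the unadjusted threshold, and passed adjustment at Nr2f2, the venous factor COUP-TFII (0.21, limma adjusted p = 0.0378), but not in 12 of the 18 fits that left out 1 list (limma adjusted p up to 0.0816). The 19 genes that the study names beside its ATAC-seq and related data were chosen on these samples, and are not independent evidence of a direction. They had 159 regions. At the unadjusted threshold, 19 (11.9%, against 6.35%) had fewer aged lists and none more. Strength was higher in 5 (13.5%, against 11.7%) and lower in 3 (8.11%, against 10.7%) of 37 at the unadjusted threshold. After adjustment 1 was higher and none lower, against 1.37% and 2.13% of all regions tested. The regions with fewer aged lists included one 65.9 kb from the growth factor receptor gene Fgfr2 with a peak in 5 young and no aged lists (exact p = 0.0044).

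Angiogenesis and Notch genes (23 genes, 163 regions) had fewer aged lists in 11 regions (6.75%, against 6.35% of all regions). Of their 56 regions with a peak in all lists, 15 (26.8%) had a higher and 1 (1.79%) a lower strength at an unadjusted p of 0.05 or less, against 11.7% and 10.7% of all regions tested, and the median change was 0.12. The promoter of Dll4, a Notch ligand of tip cells and arteries, passed adjustment, with 11.8 to 15.6 in young and 13.4 to 16.4 in aged lists (0.28 ± 0.078 SE, limma adjusted p = 0.045). It did not pass in 13 of the 18 fits that left out 1 list (limma adjusted p up to 0.1001). Circadian clock genes (18 genes) had a higher strength in 11 (37.9%, against 11.7%) and a lower one in none (against 10.7%) of 29 regions at the unadjusted threshold, with a median of 0.10. The promoter of Bhlhe41, a repressor of the clock, rose (0.43, limma adjusted p = 0.0142), and so did a region in the UTR of Rora, a nuclear receptor that activates the clock (0.22, limma adjusted p = 0.0483). The Rora call was lost in 13 of 18 such fits (limma adjusted p up to 0.116). Of the 57 clock regions, 2 (3.51%, against 6.35%) had fewer aged lists, and of the 13 that could pass 15.4% did, against 17.3%.

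Factors of shear stress and oxidative defence (10 genes) had a higher strength in 7 (21.2%, against 11.7%) and a lower one in 3 (9.09%, against 10.7%) of 33 regions at the unadjusted threshold. Strength fell 17.5 kb from Klf4, a factor induced by laminar flow, with 19.4 to 22.7 in young and 10.4 to 19.9 in aged lists (-0.30 ± 0.072 SE, limma adjusted p = 0.0224), and 21.8 kb from Hmox1, the gene of heme oxygenase (-0.34, limma adjusted p = 0.0207). It rose 8.9 kb from Klf6 (0.35, limma adjusted p = 0.028), but did not pass without Aged Sham 3, Young Bleo 1 or Young Bleo 4 in turn (limma adjusted p up to 0.0533). At Klf4 the change was -0.12 in Sham and -0.48 in Bleo lists (limma interaction, adjusted p = 0.381). Genes of leukocyte adhesion and NF-κB (17 genes) had 6 higher (27.3%, against 11.7%) and 2 lower (9.09%, against 10.7%) strengths in 22 regions at the unadjusted threshold, of which 1 in each direction passed adjustment. A region 39.9 kb from Nfkb1, with 17.2 to 25.03 in young and 11.7 to 21.005 in aged lists, fell by 0.35 (limma adjusted p = 0.0124), and the promoter of Nfkb2 rose by 0.33 (limma adjusted p = 0.0476), a call lost in 13 of the 18 fits without 1 list (limma adjusted p up to 0.106). Both genes encode NF-κB subunits.

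The 18 senescence and cell-cycle genes had a higher strength in 5 (18.5%, against 11.7%) and a lower one in 2 (7.41%, against 10.7%) of 27 regions at the unadjusted threshold. The promoters of Cdkn1a, which encodes the inhibitor p21 (0.38 ± 0.10 SE, limma adjusted p = 0.04), and of Bcl2l1, a survival gene (0.22, limma adjusted p = 0.0483), rose. Cdkn1a had 4.66 to 7.03 in young and 6.25 to 9.75 in aged lists, and its groups overlapped. With 1 list left out, the Cdkn1a call was lost in 12 of 18 fits (limma adjusted p up to 0.0835) and the Bcl2l1 call in 14 (up to 0.0963). Of the 54 regions of this list, 3 (5.56%, against 6.35%) had fewer aged lists, among them regions near Igfbp5 (1 aged against 8 young lists, exact p = 0.0016) and Cdkn1c (0 against 6, exact p = 0.0022). Of the 13 regions of this list that could pass, 23.1% had fewer aged lists, against 17.3% of all such regions. The basement membrane list (15 genes) had fewer aged lists in 7 of 95 regions (7.37%, against 6.35%) and more in none, such as a region 80.1 kb upstream of the collagen gene Col4a1 with a peak in no aged and 6 young lists (exact p = 0.0113). Of the 45 basement membrane regions that could pass, 15.6% had fewer aged lists, against 17.3% of all such regions. Strength in this list was higher in 4 (18.2%, against 11.7%) and lower in 3 (13.6%, against 10.7%) of 22 regions at the unadjusted threshold. After adjustment 1 passed, where strength rose 44.9 kb from Col18a1, the gene of a vascular collagen (0.35, limma adjusted p = 0.0399), a call lost in 12 of 18 such fits (limma adjusted p up to 0.0903). Genes of AP-1 and stress factors (15 genes, 38 regions in all lists) had 4 higher (10.5%, against 11.7%) and 2 lower (5.26%, against 10.7%) strengths at the unadjusted threshold and none after adjustment, and interferon and innate immunity genes (25 genes, 29 regions) had 1 (3.45%) and 0. With all peaks, fewer aged lists had a peak in 4 of 80 shear-stress and oxidative defence regions (5%, against 6.35% of all regions). The counts were 4 of 63 leukocyte adhesion and NF-κB (6.35%), 4 of 67 AP-1 and stress (5.97%) and 2 of 77 interferon and innate immunity regions (2.60%). More aged lists had a peak in 1 of the 80 shear-stress and 2 of the 63 leukocyte adhesion regions, against 0.165% of all regions. None of the AP-1 or interferon regions had more. Of the 19 AP-1 and stress regions that could pass, 21.1% had fewer aged lists, against 17.3% of all such regions. For the shear-stress, leukocyte adhesion and interferon lists this share was below 17.3%.

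**Figure D4:**
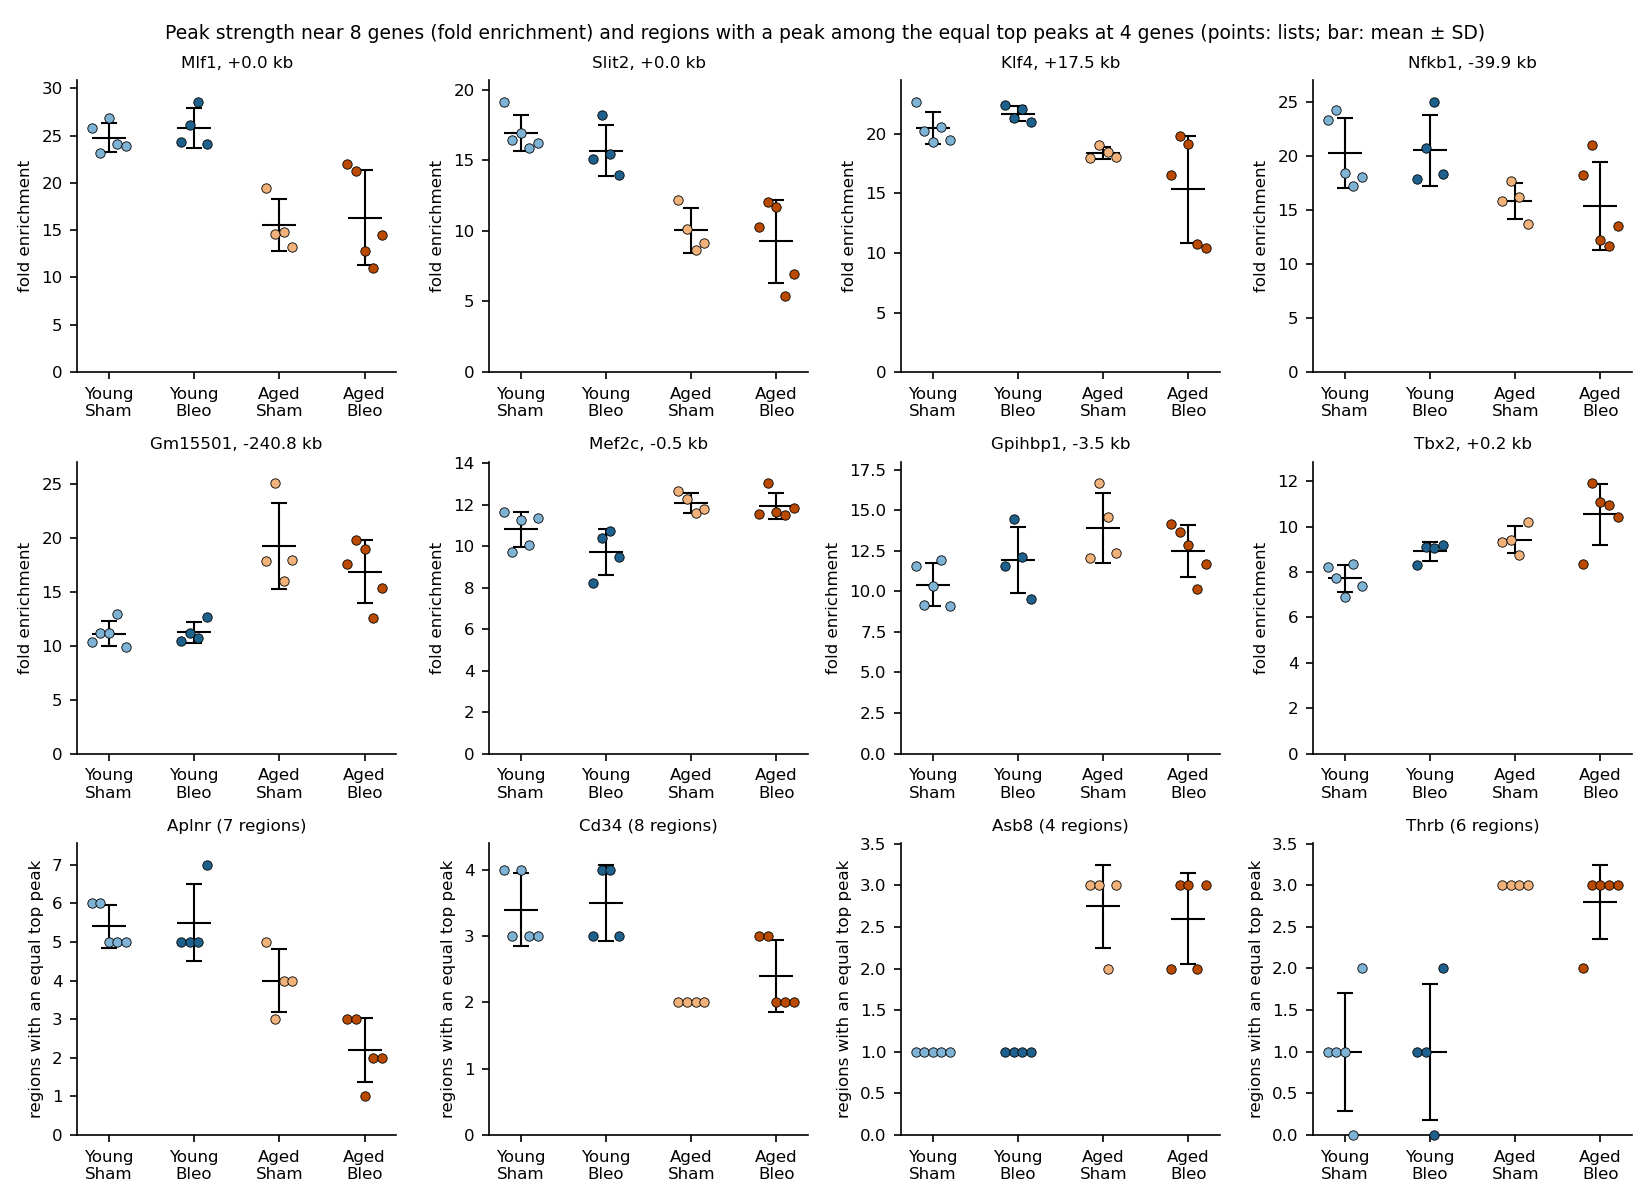
Fold enrichment as deposited in each list for regions near 8 genes, with the distance from the start site in kb, and the number of regions with an equal top peak at 4 genes; points are lists and bars are mean ± SD. Mlf1 and Slit2 have aged lists below all young lists, Mef2c has most aged lists above the young ones, and every young list has 1 Asb8 region against 2 or 3 in aged lists.

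Called regions differed in position and base composition. Promoters made up 27.5% of the 371 weaker regions and 41.2% of the 238 stronger ones, against 45.8% of all regions with a peak in every list. The median GC content was 53.5% and 63.8%, against 61.0%. Across the tested regions the change went with GC content: the median was -0.035 in the lowest tertile of GC, 0.0091 in the middle and 0.037 in the highest, with 219, 89 and 63 weaker and 68, 73 and 97 stronger regions. After the median of each GC bin had been subtracted in every list, 244 weaker and 220 stronger regions passed, and all 371 weaker and 238 stronger regions kept their sign. Among the equal top peaks, regions with fewer aged lists lay in promoters for 10.8% and those with more aged lists for 17.2%, against 10.4% of the 8012 regions that could pass that test.

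The motif letters were counted in distal regions. The AP-1 letters were present in 24.1% of 116 stronger and 7.02% of 242 weaker distal regions, against 10.4% of the 7694 distal regions with a peak in all lists. Among the equal top peaks they were present in 19.6% of 275 regions with more aged lists and 6.70% of 403 with fewer, against 12.2% of the 6752 that could pass. For presence with all peaks the shares were 11.8% of 68 and 5.89% of 2681 regions, against 10.7% of the 15469 that could pass, and for regions called in both scorings 10.5% of 19 with more and 8.20% of 61 with fewer. The SOX letters showed the opposite order among the equal top peaks, at 4.73% of regions with more and 13.2% of those with fewer aged lists, against 7.85%, but not in strength, at 6.90% and 5.79%. With all peaks they were present in 4.41% and 5.41%, against 7.19%. The ERG letters were present in 26.7% of stronger and 25.6% of weaker regions, against 25.3%, and in 26.9% of regions with more and 25.8% with fewer aged lists among the equal top peaks, against 25.1%. With all peaks the shares were 16.2% of 68 regions with more and 20.5% of 2681 with fewer, against 22.7%. Of the regions called in both scorings, 5.26% of 19 with more and 31.1% of 61 with fewer aged lists held them. These shares are descriptions of regions that share libraries, and no test was made on them.

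**Figure D5:**
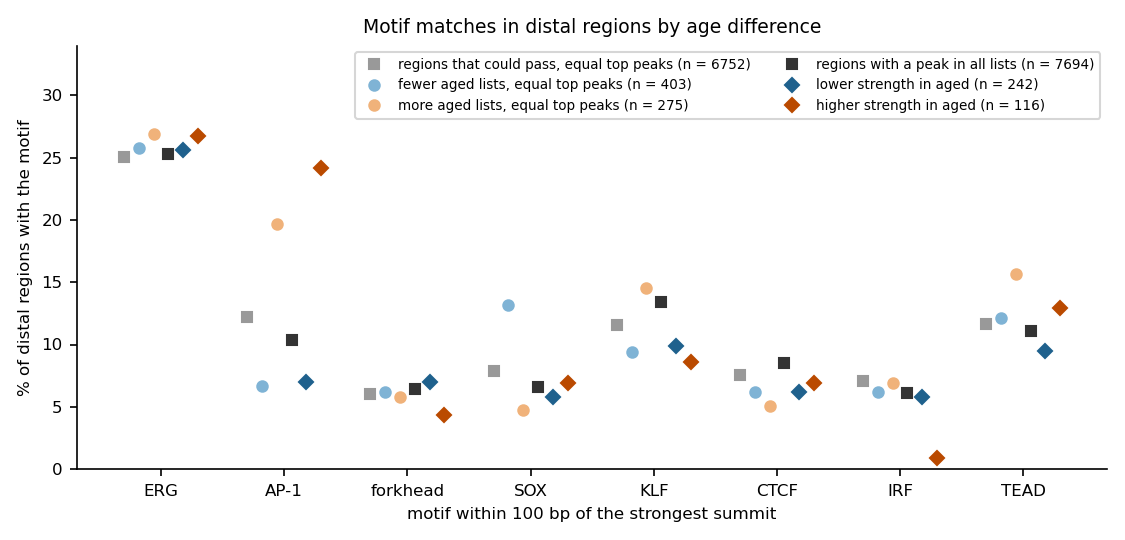
Share of distal regions (%) with each of 8 motifs within 100 bp of the strongest summit, for regions that differ with age by equal top peaks (circles) or strength (diamonds) and for the regions that could pass the presence test or were tested for strength (squares). AP-1 separates the directions in both measures, from 6.70% to 19.6% and from 7.02% to 24.1%, while ERG lies between 25.1% and 26.9% in every set.

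The direction of the presence differences was then counted in subsets of the lists, where selection over all lists favours the same direction. Of the 3007 regions with fewer aged lists, 2552 had the same direction in both treatments, and within lane 7 alone 2705 had the same direction, 40 the opposite and 1270 were at 0 of 3 aged against 3 of 3 young lists. Of the 482 regions with fewer aged lists among the equal top peaks, 317 had the same direction in both treatments and 361 in lane 7, where 17 had the opposite one. Of the 354 with more, the numbers were 262, 300 and 12.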

How the data were processed

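Peak lists of the sorted lung ECs of 18 mice were used. By the study's methods, libraries were made by Omni-ATAC-seq, and the authors aligned read pairs with BWA (mm10), kept those with a uniquely mapped end, dropped Picard duplicates and called peaks with MACS2 (FDR 1%). A control library and a shift of the Tn5 cut sites are not given in the sources used here. The deposited fold enrichment is a ratio that the authors' MACS2 run computed from fragments at the summit and the local background of that library. Its Poisson test gave the -log10 p and -log10 q values that the authors deposited. The deposited score is a rescaled value written by the authors' pipeline and was not used. Values are not scaled between lists. Solving fold enrichment and -log10 p together gave whole summit fragments (within 0.01) for 99.995% of 593980 peaks, and the smallest background so solved in each list, 1.02 to 1.78 fragments, is called its background coverage. Depth is otherwise unknown, and 19 mitochondrial peaks were left out.

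The midpoint of each region was placed on 45756 RefSeq transcripts (GRCm38.p6) and the region given to the nearest start site. Presence was compared with two-sided exact tests stratified by treatment, list and gene values by enumerating all 15876 arrangements of age within treatment, and strength with limma 3.58.1 in R 4.3.3 (quantile normalization, eBayes with trend), each with Benjamini-Hochberg adjustment over all features. Other steps used Python 3.11.15 with scipy 1.17.1. The scripts were tested on simulated data. The comparison, the gene lists and the rules were chosen with earlier results of these data known. Named were the 8 regions per direction with the smallest p among those past an unadjusted 0.05 in both scorings, the 6 strength regions and the 6 genes (equal top peaks) per direction with the smallest p, and up to 4 genes per list. The authors' differential test needs reads per region and was not repeated here. Alternatives covered thresholds, overlap, ranking, normalization, covariates, single treatments, lane 7, pairing and each list left out.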

Additional observations from a re-analysis of the deposited data

Results flagged for a closer look

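In 161 groups of 4 or 5 lists, the highest or lowest list was compared with the others by Dixon's criterion at its 95% level, and 7 groups had a list far from the rest, where chance flags about 1 in 20. Background coverage in Aged Bleo lists reached 1.60 fragments in Aged Bleo 1, against a group median of 1.14. Fold enrichment was far from the group at 18.75 near Chst1 in Aged Bleo 2 (median 9.88), at 22.2 near Rora (median 16.6) and 13.03 near Mef2c (median 11.7) in Aged Bleo lists, at 8.28 near Tbx2 in Young Bleo lists (median 9.08) and at 13.6 near Bcl2l1 in Aged Sham lists (median 15.5). Aged Bleo lists also had a low value at Kit, with 4 regions among the equal top peaks in a list, against a median of 7. Whether these lists share a technical feature was not tested.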

How the results depend on the processing

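Within each scoring, no named difference past its threshold changed sign under any alternative run. Among the differences not past it, with all peaks, Notch1 turned to 0.075 without Aged Sham 1 and Gm21190 to 0 without Young Bleo 2. Between the scorings, Thrb, Spon1, Gm21190, Notch1, Lrp5 and Chst1 had opposite signs, as given above. Counts moved by over 1.5 times as follows. The causes were not tested. With all peaks, 4797 regions had fewer aged lists where peaks had to cover 50% of a region. With the equal top peaks 281 regions had fewer aged lists without the treatment stratum. Strength called 9 lower and 9 higher regions in Bleo lists only, 134 higher in Sham lists only, 244 lower after GC adjustment, 14 and 10 with a background coverage term, 1 and 0 with a lane term, 568 and 460 in lane 7 only, 154 higher in regions with equal top peaks in all lists, 396 higher with median centring, 230 and 148 without the treatment term, and 874 and 954 with summit fragments. The GC, background coverage, lane 7 and single-treatment alternatives, the autosome alternative for strength, and those that left out a list from the gene counts, were chosen after seeing the data. Among genes with 5 or more regions, 915 had fewer and 0 more regions with all peaks, and 104 passed adjustment, with 140 fewer and 108 more among the equal top peaks.

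Leaving out each list in turn gave 199 to 471 lower and 119 to 361 higher regions in strength, -7206 to -4726 peaks, 7 to 13 genes with more regions and 0 to 563 genes past adjustment with all peaks. The lower count was 224 without Aged Sham 1, 236 without Aged Sham 3, 204 without Young Bleo 3, 199 without Young Sham 2 and 228 without Young Sham 4. The higher count was 125, 143, 119 and 361 without Aged Sham 1, 2, 3 and 4, 149, 120 and 141 without Young Bleo 2, 3 and 4, and 119, 142 and 135 without Young Sham 2, 3 and 4. The 13 genes with more regions came without Aged Bleo 4, and 83, 283 and 563 genes passed adjustment without Young Sham 5, Aged Bleo 1 and Aged Bleo 2. The difference in the number of peaks missed the threshold without Young Bleo 2 (-5547, exact permutation p = 0.055) or Young Bleo 3 (-5528, exact permutation p = 0.0553).

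Deviations of same-numbered lists correlated at 0.003 to 0.056 in Sham and -0.006 to 0.255 in Bleo pairs, and the own number was best in 2 of 8 pairs, so the numbers were not taken as pairing. With the replicate block, 610 regions had fewer and 17 more aged lists with all peaks, 53 and 58 with the equal top peaks, and 396 lower and 257 higher regions passed in strength. Absence from a list means only that no peak was called at that depth.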

Other observations

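Chromosomes 2, 11 and 15 passed adjustment over the chromosomes in strength, and were chosen after their values were seen. Of the 1312 chromosome 11 regions with a peak in all lists, 26 (1.98%, against 1.37% of all regions tested) were stronger and 9 (0.686%, against 2.13%) weaker in aged lists. Among the equal top peaks 53 regions (1.58%, against 0.748%) had more and 12 (0.358%, against 1.02%) fewer aged lists. The median change of chromosome 11 regions was 0.050 on the log2 scale, at 0.059 in Sham and 0.040 in Bleo lists and at 0.041 after GC adjustment, against 0.0093 over all chromosomes. The median of a list's chromosome 11 regions ranged from -0.011 to 0.068 in aged and from -0.039 to 0.0079 in young lists (difference 0.047, exact stratified permutation p = 6.3e-05, the smallest possible, adjusted over 21 chromosomes 0.00132). For chromosome 15 the difference was 0.037 (exact permutation p = 0.00013, adjusted 0.00132), and for chromosome 2 it was 0.012 (exact permutation p = 0.0018, adjusted 0.0128). The median change of chromosome 2 regions was 0.010, near that over all chromosomes, and 0.0024 after GC adjustment. With all peaks, 3.16% of chromosome 11 regions had fewer aged lists, against 6.35% of all regions. The median GC content of these regions was 62.5% on chromosome 11 and 62.0% on chromosome 15, against 61.0% overall.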
